A study of Mus musculus with 8 samples.

Results

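The core genes of Hedgehog signalling described here are the ligand Shh, the receptors and co-receptors Ptch1, Smo, Boc and Gas1, the ligand-binding antagonist Hhip and the transcription factors Gli1, Gli2 and Gli3. They were taken by gene symbol, and all 9 were present among the 20152 genes of the authors' comparison. Whole back skin of E14.5 mouse embryos was sequenced as RNA, in 4 libraries from GNAQ R183Q embryos and 4 from WT embryos that the submitters describe as biologically independent. GNAQ encodes the alpha subunit of the G protein Gq, and the R183Q change occurs in human capillary malformations and in Sturge-Weber syndrome. The sources used here give neither the promoter, Cre line or cell type that made the changed protein nor the embryos' sex and litter. All libraries carry the same batch label.

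Hedgehog ligand binds Patched1 (PTCH1), which otherwise holds the membrane protein Smoothened (SMO) inactive. Once SMO is active in the primary cilium, the GLI proteins switch from repressors to activators of transcription. In embryonic skin, Shh is made by the epithelium of hair placodes and signals to that epithelium and to the dermal condensate beneath it. Gli1, Ptch1 and Hhip are themselves transcriptional targets of the pathway, so their mRNA levels are commonly read as a measure of its activity.

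None of the Hedgehog core genes passed the test between the genotypes. In the authors' deposited table, 0 of the 9 genes rose and 0 fell at an adjusted p of 0.05, and 0 passed an unadjusted p of 0.05, where 3.09% and 14.2% of all genes did. The median log2 fold change of GNAQ R183Q over WT was 0.14 over the 9 genes and 0.01 over all genes. The fold changes were above 0 for 8 of the 9 genes, against 51% of all genes, and all 9 intervals included 0. That share depends on transcript length. In length quintiles 4 and 5 (5 the longest) of genes with at least 1 CPM, 58.3% and 74.4% were above 0. Their median log2 fold changes were 0.04 and 0.13, and they hold 3 and 4 of the 9 genes. The errors given here are 95% intervals implied by the authors' fold change and p-value, because the values used here are averages per genotype and not one value per library. RNA of whole skin cannot tell fewer cells of a type from less RNA per cell.

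**Figure D1:**
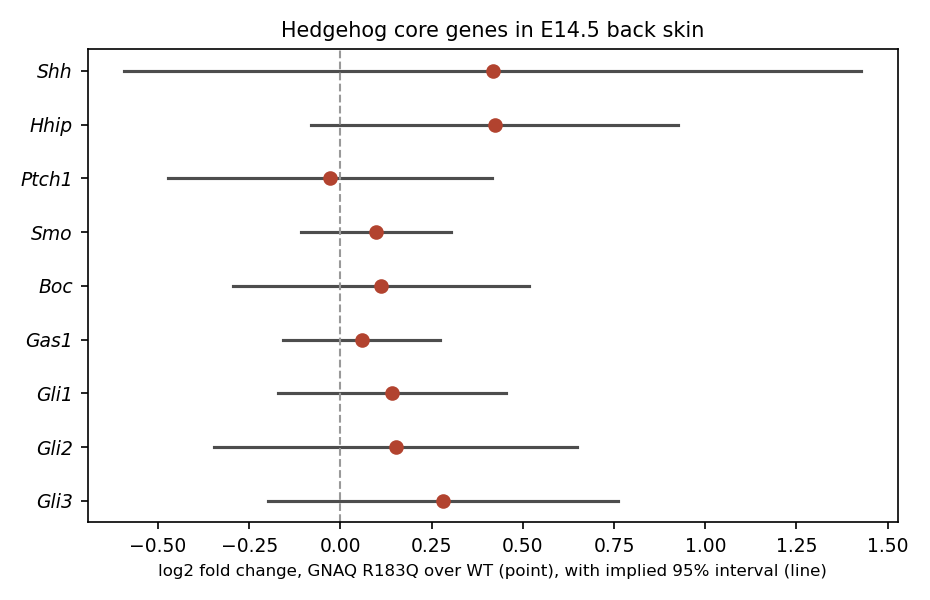
Log2 fold change of GNAQ R183Q over WT (points) with the implied 95% interval (lines) for the 9 Hedgehog core genes, from the ligand at the top to the Gli factors at the bottom. All intervals cross the dashed line at 0, the narrowest being those of Smo and Gas1 and the widest that of Shh.

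Shh, the ligand, was the least abundant of the 9 genes, with an average expression of 29.3 normalized counts over the 8 libraries, or 1.1 CPM on the scale of the summed table. The authors' deposited table gave it a log2 fold change of 0.42, with an interval from -0.59 to 1.43 and an adjusted p of 0.767. Together, the average and the fold change imply mean levels of 33.5 normalized counts in GNAQ R183Q libraries and 25.1 in WT libraries. The interval, from 0.663-fold to 2.69-fold, was the widest of the 9 genes.

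Hhip, a membrane-bound protein that captures ligand, had the smallest p of the 9 genes. The implied mean levels were 327 normalized counts in GNAQ R183Q libraries and 244 in WT libraries. Its log2 fold change in the authors' deposited table was 0.42, with an interval from -0.08 to 0.93, an unadjusted p of 0.100 and an adjusted p of 0.462. The other transcriptional targets in the group had smaller fold changes, with intervals that included 0. Ptch1, the receptor, had implied mean levels of 1966 in GNAQ R183Q libraries and 2005 in WT libraries. Its log2 fold change in the authors' deposited table, -0.03, was the only one below 0, although its mean z-score of log2 CPM was higher in GNAQ R183Q libraries. The interval of Ptch1 ran from -0.47 to 0.42, or from 0.721-fold to 1.33-fold. Gli1, which is induced by the pathway and amplifies it, had implied mean levels of 1949 in GNAQ R183Q libraries and 1766 in WT libraries. The authors' deposited table gave Gli1 a log2 fold change of 0.14, with an interval from -0.17 to 0.45 and an adjusted p of 0.740. For these 3 target genes, the upper bounds of the intervals lay at 1.90-fold for Hhip, 1.33-fold for Ptch1 and 1.37-fold for Gli1.

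Smo, the signal transducer, was the most abundant of the 9 genes and one of the most precisely measured. Implied mean levels were 4169 normalized counts in GNAQ R183Q libraries and 3898 in WT libraries. The log2 fold change of Smo in the authors' deposited table was 0.10, with an interval from -0.11 to 0.30 and an adjusted p of 0.726. Gas1 and Boc encode cell-surface proteins that bind ligand and present it to PTCH1. Gas1 had implied mean levels of 2830 in GNAQ R183Q libraries and 2718 in WT libraries, and the authors' deposited table gave it a log2 fold change of 0.06 with an interval from -0.16 to 0.27. Boc had implied mean levels of 1222 in GNAQ R183Q libraries and 1131 in WT libraries, and the authors' deposited table gave it a log2 fold change of 0.11 with an interval from -0.29 to 0.52. Their adjusted p-values were 0.865 for Gas1 and 0.862 for Boc. The intervals of Smo and Gas1, which belong to the deposited fold changes, reached at most 1.23-fold and 1.21-fold. They set no bound once a trend on length and GC content was removed, when the log2 fold changes were higher, at 0.19 and 0.21.

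Gli2 and Gli3 encode the GLI proteins that are present before the signal arrives, GLI2 as the main activator and GLI3 as the main repressor. Gli2 had implied mean levels of 1574 normalized counts in GNAQ R183Q libraries and 1418 in WT libraries. For Gli2 the log2 fold change in the authors' deposited table was 0.15, with an interval from -0.35 to 0.65 and an adjusted p of 0.845. Gli3 had implied mean levels of 1404 in GNAQ R183Q libraries and 1155 in WT libraries. For Gli3 the authors' deposited table listed a log2 fold change of 0.28, with an interval from -0.20 to 0.76 and an adjusted p of 0.641. The intervals of these genes were wider than those of Smo and Gas1. In the GRCm38 annotation, Gli1 overlaps Arhgap9 on the opposite strand and Gli3 overlaps the predicted gene Gm6556, both of which were also in the comparison. The strand setting of the counting is unknown here.

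Read per kilobase of transcript, the 9 genes ranked in an order that placed the transducer and a co-receptor far above the ligand. Average expression over the 8 libraries was 1067 normalized counts per kilobase for Smo, 937 for Gas1 and 458 for Gli1. Boc, Ptch1 and Gli2 lay close to each other at 264, 257 and 225 per kilobase, followed by Gli3 at 157, Hhip at 31.5 and Shh at 10.3. The order between close neighbours was not tested, since no spread of these levels between libraries was available here. Lengths were those of the longest protein-coding transcript, from 2847 nucleotides for Shh to 9074 for Hhip, in an annotation of another genome build than the authors' own. Ptch1, Gas1 and Gli3 lie on chromosome 13, and Shh, Hhip, Smo, Boc, Gli1 and Gli2 lie on chromosomes 5, 8, 6, 16, 10 and 1 of that build.

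**Figure D2:**
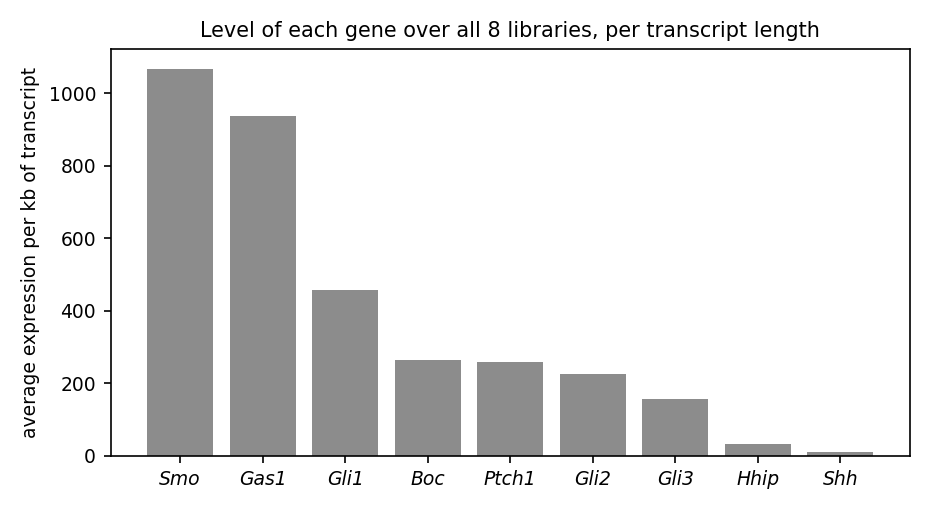
Average expression over all 8 libraries in normalized counts per kilobase of the longest protein-coding transcript, for the 9 Hedgehog core genes in falling order. Smo and Gas1 stand at 1067 and 937, and Shh stands lowest at 10.3.

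The deposited z-scores of log2 CPM, which place each library relative to the mean of all 8, showed how the libraries of a genotype were spread. The mean z-scores of the genotypes are equal and opposite by construction, so the medians carry the added information. Smo had a mean z-score of 0.625 in GNAQ R183Q libraries and -0.625 in WT libraries, with medians close to them at 0.611 in GNAQ R183Q libraries and -0.605 in WT libraries. For Ptch1, Boc and Gli2 the medians put the genotypes in the opposite order to the means, which for Ptch1 is the order of its log2 fold change. Ptch1 had a mean z-score of 0.0718 in GNAQ R183Q libraries and -0.0718 in WT libraries. The median z-score of Ptch1 was -0.0664 in GNAQ R183Q libraries and 0.282 in WT libraries. For Boc the medians were 0.132 in GNAQ R183Q libraries and 0.325 in WT libraries, and for Gli2 they were 0.228 in GNAQ R183Q libraries and 0.324 in WT libraries. Opposite orders occurred in these 3 of the 9 genes, against 11.7% of all genes with at least 1 CPM.

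The means and medians, with the sum of squared z-scores of 7 that 8 libraries have, can show that the genotypes overlapped. For 8 of the 9 genes, no library values with the deposited means and medians and that sum could place all GNAQ R183Q libraries above all WT libraries. The genotypes therefore overlapped for these genes. The exception was Smo, for which the deposited values leave both possibilities. Overlap could be shown in the same way for 77.2% of all genes with at least 1 CPM.

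**Figure D3:**
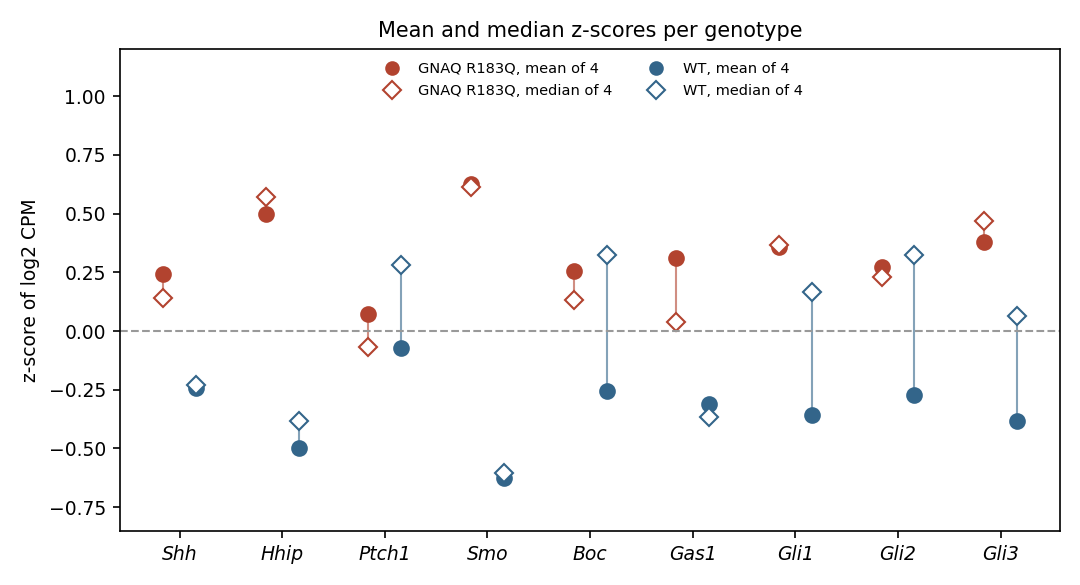
Mean (filled circles) and median (open diamonds) z-scores of log2 CPM over the 4 libraries of each genotype, GNAQ R183Q left of WT, for the 9 Hedgehog core genes. In WT the medians of Ptch1, Boc, Gli1, Gli2 and Gli3 lie well above their means, and for Ptch1, Boc and Gli2 the WT median lies above the GNAQ R183Q median.

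In WT, the means of all 3 Gli genes and of Boc were pulled down by at least 1 low library. Among 4 values the lowest cannot exceed 4 times the mean minus 3 times the median, and this limit was -2.06 for Gli2, -2.0 for Boc, -1.93 for Gli1 and -1.71 for Gli3. At least 1 WT library therefore lay that low for each of these genes, although the values used here cannot show whether it was the same library. The limits for the other 5 genes were less extreme, at -1.13 for Ptch1, -0.84 for Hhip, -0.68 for Smo, -0.28 for Shh and -0.14 for Gas1. A WT library at or below a z-score of -1.5 could be shown for 4 of the 9 genes, against 11% of all genes with at least 1 CPM. A GNAQ R183Q library that low could be shown for 0 of the 9 genes, against 1.26% of such genes.

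This low WT value moved with transcript length over the 13786 genes with at least 1 CPM and a matched length. Among genes in the shortest quintile of transcript lengths, 1.85% had a WT library shown to lie at or below -1.5, and in the longest quintile 27.9% did. Over the same quintiles the median log2 fold change of GNAQ R183Q over WT went up with length, with -0.18 for the shortest and 0.13 for the longest. Ptch1, Gli2, Gli3 and Hhip belong to the longest quintile, Smo, Gli1 and Boc to the next, and Shh and Gas1 to the middle one. After a trend on length and GC content was removed, 8 of the 9 log2 fold changes were above 0. The 9 had a median of 0.19, against 0.02 over all genes in the fit, whose share above 0 was not counted. The values of Hhip and Gli3 moved to 0.23 and 0.13, those of Smo, Gas1 and Gli1 to 0.19, 0.21 and 0.24, and that of Ptch1 to -0.15. The intervals and upper bounds given above belong to the deposited fold changes and were not moved with these values. The smallest adjusted p among the 9 was then 0.351, that of Gas1. The part of this low WT value in the positive fold changes was not tested beyond that.

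**Figure D4:**
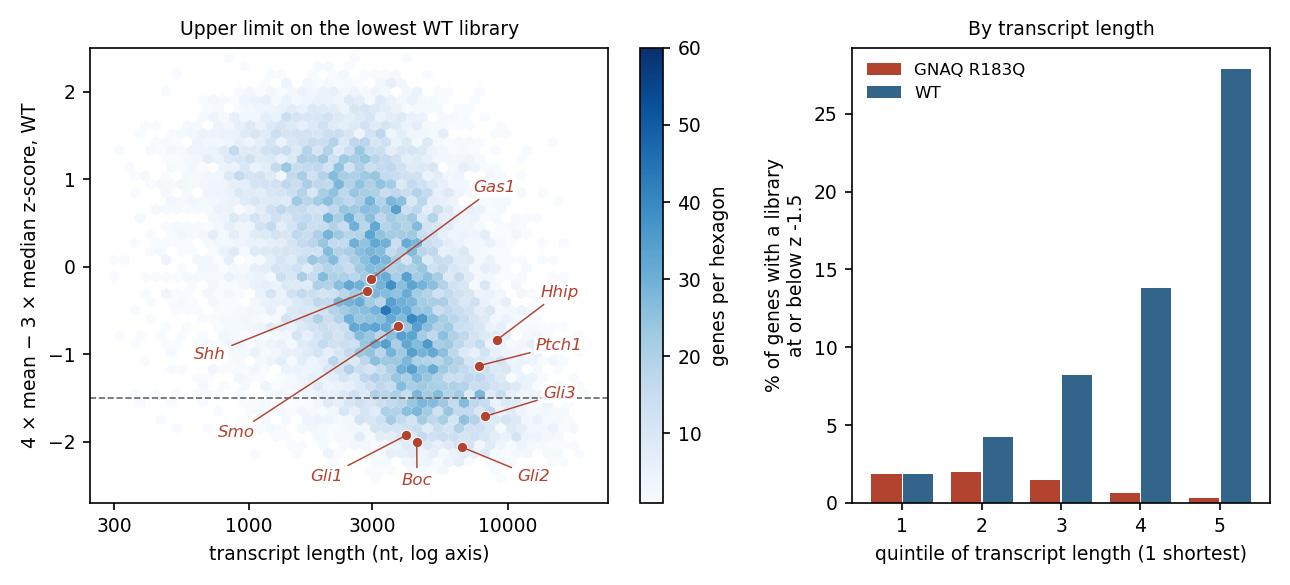
Left, the upper limit on the z-score of the lowest WT library (4 times the mean minus 3 times the median) against transcript length on a log axis, for genes with at least 1 CPM (hexagons; the few shortest and longest are not drawn) and the 9 Hedgehog core genes (red), with a dashed line at -1.5. Right, the percentage of genes in each quintile of transcript length with a library shown to lie at or below -1.5, for GNAQ R183Q and WT; in WT it reaches 27.9% in the longest quintile.

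The wider pathway was described with 66 further measured genes in lists by role, of which 1 rose and 0 fell in the authors' deposited table, against 0.63% of all genes higher and 2.46% lower. Ift88, which encodes a transport protein that builds the primary cilium, rose, with implied mean levels of 733 normalized counts in GNAQ R183Q libraries and 580 in WT libraries. The log2 fold change of Ift88 in the authors' deposited table was 0.34, with an interval from 0.14 to 0.54 and an adjusted p of 0.0358. Ift88 was 1 of 33 measured genes listed for the steps between SMO and the GLI proteins, a list with a median log2 fold change of 0.03. The list mixes genes that pass the signal on with inhibitors such as Sufu, so its median gives no direction of signalling. At an unadjusted p of 0.05, that list held 3 higher genes and 2 lower genes, where 5.94% of all genes were higher and 8.23% lower. In the authors' deposited table, Sufu, which encodes the inhibitor that binds GLI proteins, stood at a log2 fold change of 0.23 with an adjusted p of 0.650, and the ciliary kinesin gene Kif7 at -0.15 with 0.746. Sufu and Kif7 were singled out for their roles after their values were seen.

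Of 9 genes for ligands and their maturation and release, 0 passed, with a median log2 fold change of 0.01. Scube3, which belongs to a family of secreted proteins that help to release lipid-bearing ligand from cells, had the smallest p. The authors' deposited table gave it a log2 fold change of 0.86, with an interval from 0.29 to 1.43 and an adjusted p of 0.0775. Its implied mean levels were 296 normalized counts in GNAQ R183Q libraries and 163 in WT libraries. The other Scube genes had log2 fold changes in the authors' deposited table of 0.54 for Scube1 and 0.29 for Scube2, with adjusted p-values of 0.429 and 0.469. The other ligands, Dhh and Ihh, averaged 23.9 and 2.11 normalized counts. Their log2 fold changes in the authors' deposited table were -0.26 and -1.22, with adjusted p-values of 0.853 and 0.746.

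Of 10 further receptors and co-receptors, 0 passed, with a median log2 fold change of 0.09. Cdon, the co-receptor related to Boc, had the smallest p, and the authors' deposited table gave it a log2 fold change of 0.43, with an interval from 0.02 to 0.84 and an adjusted p of 0.317. Its implied mean levels were 6089 normalized counts in GNAQ R183Q libraries and 4512 in WT libraries. Of 15 measured genes listed as targets, 0 passed, with a median of 0.00. The smallest p in that list belonged to Sfrp1, a secreted Wnt inhibitor, for which the authors' deposited table listed a log2 fold change of 0.39 and an adjusted p of 0.185.

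**Figure D5:**
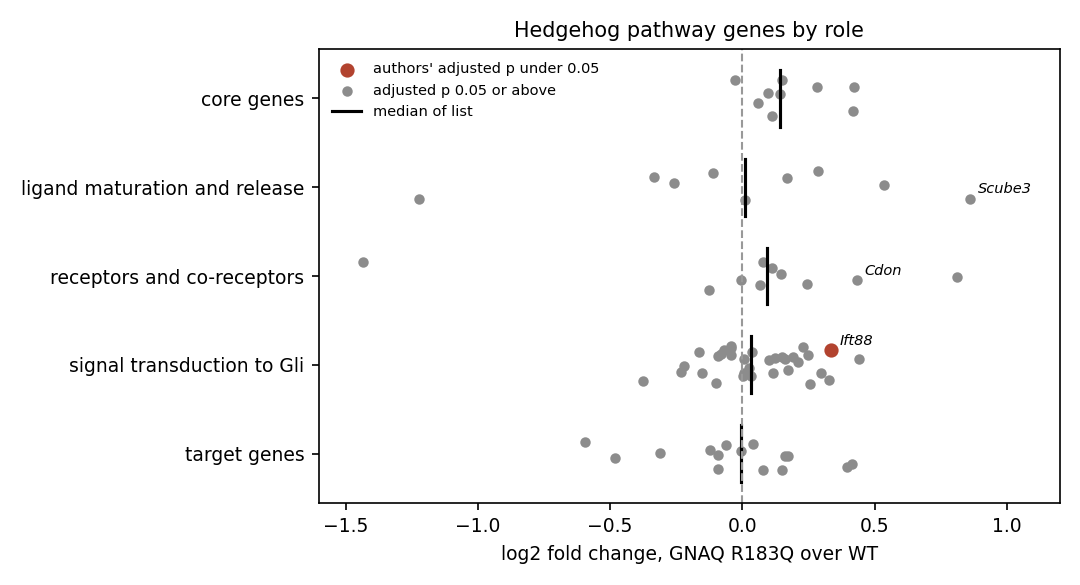
Log2 fold change of GNAQ R183Q over WT for each measured gene (points, spread vertically for clarity) of the 9 Hedgehog core genes and 4 lists of other pathway genes, with the median of each list as a black line. Only Ift88 (red) has an authors' adjusted p under 0.05.

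Markers of the cells that make or receive the ligand were examined beside these values. Of 13 measured hair placode genes, 0 passed, 3 had a log2 fold change above 0 with an unadjusted p below 0.05, average expression ranged over 14.1 to 6722 normalized counts, and the median log2 fold change was 0.18. For comparison with these and the following marker counts, 0.63% of all genes rose and 2.46% fell, and 5.94% were higher and 8.23% lower at an unadjusted p of 0.05. The Wnt inhibitor gene Dkk4 had the smallest p, and the authors' deposited table listed its log2 fold change at 0.47 with an adjusted p of 0.136. Among 14 dermal condensate genes in the authors' deposited table, Inhba rose (log2 fold change 0.59) and Cdkn1a fell (log2 fold change -0.88). Among 13 dermal fibroblast genes in the authors' deposited table, Dpp4 and Dpt fell, with log2 fold changes of -0.64 and -0.50. The authors' deposited table had 2 falls among 8 basal epidermal genes, Krt15 and Perp with log2 fold changes of -1.01 and -0.64. It had 8 falls among 8 suprabasal genes, with log2 fold changes for Lor at -3.70, Krt77 at -2.28, Ivl at -1.86 and Sbsn at -1.76. Among 8 skeletal muscle genes, Ckm, Myf6 and Tnnt3 fell, and their log2 fold changes in the authors' deposited table were -1.50, -0.90 and -0.76. Other genes of these lists went the other way. Log2 fold changes were above 0 for 8 of 14 condensate, 3 of 13 fibroblast, 3 of 8 basal and 2 of 8 muscle genes. The medians of these 4 lists were 0.02, -0.15, -0.11 and -0.44. Once the length and GC trend was removed, Perp, the suprabasal gene Krtdap and Tnnt3 no longer passed, with adjusted p-values of 0.0733, 0.0610 and 0.0834. The placode genes Dkk4 and Cxcl14 then passed, with 0.0124 and 0.00782, where 587 of all 13786 genes in the fit passed in either direction.

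Measured markers of cartilage, notochord and floor plate, neural tissue and endothelium numbered 6, 6, 2 and 6, and 0 passed the authors' DESeq2 threshold. At an unadjusted p of 0.05, 1 cartilage gene was lower, 1 notochord or floor plate gene and 1 neural gene were higher, and 0 endothelial genes passed. The smallest p of each list belonged to Cnmd, Corin, Tubb3 and Tek, whose log2 fold changes in the authors' deposited table were -1.07, 0.82, 0.65 and -0.40. The part of shifts in cell types in the values of the Hedgehog genes was not tested. For Gnaq itself the authors' deposited table listed a log2 fold change of 0.09 and an adjusted p of 0.804. This level cannot check the labels, because the sources used here do not say whether reads of the changed form enter it.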

How the data were processed

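The file used is a table of the authors' own comparison, made with DESeq2 on build mm39 per the submitters' processing notes. Not given in the sources used here are the aligner, counter, annotation, strand setting and model. The column of average expression holds a signal, deposited as 1 mean per gene over all libraries, and is read here as normalized counts, with 26.8 units per CPM. The log2 fold change of GNAQ R183Q over WT, its p-value and its adjusted p-value were deposited by the authors. The z-scores, from log2 CPM, are scores the authors deposited as means and medians per genotype.

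A count test was planned for values per library. With none used here, the authors' adjusted p at 0.05 served, and depth per library is unknown. A 95% interval was derived as the fold change plus or minus 1.96 times its size over the normal quantile of p, assuming a Wald test. Group levels are implied by the average and the fold change. Overlap was decided by whether separated groups could reach the sum of squared z-scores of 7 that 8 libraries have, less a tolerance of 0.05.

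Alternatives were a linear model rebuilt from mean z-scores with 6 residual degrees of freedom, median centring, a filter at 1 CPM, an adjusted p of 0.01, and removal of a natural-spline trend (4 degrees of freedom each) on length and GC from GENCODE vM21 (GRCm38), matched for 96.0% of the 14353 genes of at least 1 CPM and fitted to 13786. After trend removal, p-values kept the error implied by the authors' fold change and p-value. They were adjusted over the 13786 fitted genes only, whereas the authors' adjusted p covers all genes. Coordinates are not printed because the builds differ. Scripts ran in Python 3.11.15 with scipy 1.17.1 and were tested on simulated data. Beside the 9 core genes, the text names up to 4 called genes per direction in each list, or the gene of smallest p where none was called, and exceptions are marked. Dhh, Ihh, Scube1 and Scube2 were added for their roles after their values were seen. Members and lists were chosen with earlier results of these data known.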

Additional observations from a re-analysis of the deposited data

How the results depend on the processing

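The count of Hedgehog core genes that changed was 0 in each direction under every alternative run, including an unadjusted p of 0.05. Since 0 of them passed that unadjusted p, the filter at 1 CPM and the adjusted p of 0.01 could not have called any of these genes. Their adjusted p-values ran from 0.449 to 0.950 in the linear model rebuilt from mean z-scores, from 0.472 to 0.971 after median centring, from 0.395 to 0.966 among genes of at least 1 CPM and from 0.351 to 0.885 once the length and GC trend was removed. No log2 fold change of these 9 genes changed sign after centring or trend removal. Of the 66 other pathway genes, the 1 that rose, Ift88, was lost in the linear model and at an adjusted p of 0.01, with 0 genes each. At an unadjusted p of 0.05, the 66 genes held 6 higher and 2 lower, where 5.94% of all genes were higher and 8.23% lower. By list the pathway counts were 1 higher gene for ligand maturation and release, 1 for receptors and co-receptors, 1 for targets, and 3 higher and 2 lower for signal transduction to Gli. The linear model, which shares no spread between genes, called 0 genes of the whole table, with 2481 at an unadjusted p of 0.05, so its lack of calls says nothing about stability. Leaving out each replicate was not run, since no value per library was used. No paired analysis was possible because the values used are averages over the libraries of a genotype.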

Other observations

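The dependence on transcript length also showed in the direction of the fold changes. Of genes with at least 1 CPM and a matched length, 26.9% had a log2 fold change above 0 in the shortest quintile of transcript lengths, and 74.4% in the longest quintile. In GNAQ R183Q libraries, the share of genes with a library shown to lie at or below a z-score of -1.5 was 1.88% in the shortest quintile and 0.326% in the longest quintile, whereas in WT it was 1.85% and 27.9%. Among the other listed genes with a low WT limit were the fibroblast receptor gene Pdgfra at -1.92, the Schwann cell regulator gene Sox10 at -1.99, the ligand-release gene Disp1 at -2.02 and the epidermal integrin gene Itgb4 at -2.09, picked after their values were seen.

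Once the length and GC trend was removed, 2 of the 12 hair placode genes in the fit rose and 0 fell. Of all 13786 genes in the fit, 587 passed in either direction. These were not split by direction, so no share of rises over all genes stands beside the 2 placode genes. The 2 placode genes were Dkk4 at a log2 fold change of 0.63 (adjusted p 0.0124) and Cxcl14 at 0.40 (adjusted p 0.00782). Neither passed in the authors' deposited table, and Edar of the same list stood at -0.34 (adjusted p 0.505). The neural gene Tubb3 also passed only then, at 0.86 (adjusted p 0.0345). Scube3 stayed above the threshold in each case. Its adjusted p was 0.0775 over all genes in the authors' deposited table and 0.0588 for the same p-values among genes of at least 1 CPM. After the removal it was 0.0762, over the genes in the fit.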
